A study of Mus musculus with 4 samples.

Results

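The genes described here are Myc, its partners and antagonists at DNA, and the machinery that builds ribosomes, in bone marrow (BM) macrophages that had engulfed apoptotic prostate cancer cells. The set holds 38 genes, named by symbol, of the 31053 genes in the deposited matrices. It is made up of 6 genes of the MYC network and 32 genes of ribosome biogenesis, among which 2 nucleoside diphosphate kinase genes are counted. All 38 passed the filter on low counts, by which 13869 genes were tested.

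BM macrophages from young male C57BL/6J mice were grown with M-CSF, and those labelled efferocytic were co-cultured for 16 to 18 h with apoptotic RM1 cells carrying the dye CFSE and sorted as F4/80+CFSE+. RM1 is a prostate cancer line of C57BL/6J origin, made with Ras and Myc. Those labelled Non-efferocytic were sorted as F4/80+ only. The study's discussion calls them macrophages alone, while its methods and the labels describe sorting both groups after co-culture without saying which wells these came from, so the comparison may hold contact with apoptotic cells as well as their engulfment. Each group had 1 single-cell library in each of 2 experiments (n = 2 per group). The labels do not say whether the experiments used separate mice. The p-values between these groups measure how far the group difference varied between the 2 experiments, with spread shared across genes. They cannot be read as measuring a spread between mice.

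The cells kept numbered 8280 and 6695 in Experiment 1 (non-efferocytic, then efferocytic) and 13411 and 8408 in Experiment 2, with 101216659 to 155224183 unique molecular identifiers (UMIs, each marking a captured transcript) per library. Efferocytic cells held more UMIs, with means of 18670 and 18462 per cell against 12224 and 10316. All 10 macrophage markers were above 1 CPM (UMIs of a gene in 1000000 UMIs of the library) in every library, with sums of 41040 and 35351 CPM without efferocytosis and 32867 and 24870 CPM with it. The sums of 6 fibroblast markers (3 or 4 above 1 CPM) were 144 and 120 CPM against 46.0 and 52.3 CPM. The summed CPM of 8 neutrophil markers (7 or 8 above 1 CPM) was 3046 and 3339 without efferocytosis against 953 and 705 with it, and that of 4 MHC class II genes 486 and 898 against 38.5 and 95.1. For 10 genes expected in RM1 cells (1 to 5 above 1 CPM) the sums were 8.12 and 16.5 against 2.34 and 11.3 CPM. The efferocytic and non-efferocytic libraries of Experiment 2 shared 118 cell barcodes, 1.403% of the smaller library, and the other pairs shared 14 to 23. Barcodes of at least 500 but fewer than 1000 UMIs numbered 36048 in the Non-efferocytic library of Experiment 2 and 1048 to 2046 in the others. Unless another value is given, their part in the results below was not tested.

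MYC is a transcription factor that binds DNA as a pair with MAX, at the E-box CACGTG. MXD1, MXD4, MXI1 and MNT also pair with MAX, bind the same sites and repress them. Ribosome synthesis is among the processes that MYC is known to drive. In the nucleolus RNA polymerase I makes the ribosomal RNA precursor, small nucleolar ribonucleoproteins (snoRNPs) modify it, and assembly factors fold and cut it into the small and large subunits.

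The E-box was searched in the promoters of the members because it is the site these factors are known to bind. RefSeq promoter windows (build GRCm38.p6) were matched for 32 of the 38 members; Fbl, Npm1, Myc, Rrp12, Rrs1 and Bop1 had no entry. The motif CACGTG reads the same on both strands. It lay within the 250 bases before the start in 4 of the 32 members (12.5%), namely Nme1, Nop2, Mnt and Mxd4, against 6.86% of the 27025 genes of the whole table. Outside the MYC network it was found in 2 of 27 members (7.41%), close to the share of all genes. With the first 50 transcribed bases added (windows of 300 bases), the shares were 28.1% (9 of 32) and 8.09%. Of the 9 members, 2 were among the 17 matched members that were higher in efferocytic macrophages, and 7 were among the other 15. A match is a description of the letters and not of binding.

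Nme1, the member with the largest change, has 2 RefSeq starts, and each has an E-box close before it. The first site, at chr11:93968273-93968302 (minus strand), lies inside an exon in GENCODE vM21, and the gene of that exon was not checked. The second window, chr11:93968026-93968220 (minus strand), lies outside every GENCODE exon. Both are printed 5′ to 3′ with the E-box in capitals.

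Nme1, bases -30 to -1 of the first start: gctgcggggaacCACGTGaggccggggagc

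Nme1, bases -195 to -1 of the second start: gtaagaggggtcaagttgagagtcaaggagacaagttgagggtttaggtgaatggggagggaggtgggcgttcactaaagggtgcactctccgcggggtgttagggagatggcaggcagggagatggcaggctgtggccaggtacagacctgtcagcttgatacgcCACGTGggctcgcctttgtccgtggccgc

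The other members with an upstream E-box are shown by the 30 bases around it, at chr6:125131811-125131840 (plus strand) for Nop2, chr11:74830789-74830818 (plus) for Mnt and chr5:34187912-34187941 (minus) for Mxd4. None of these 3 genes was called higher in efferocytic macrophages.

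Nop2: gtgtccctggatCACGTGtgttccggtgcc

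Mnt: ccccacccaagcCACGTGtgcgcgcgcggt

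Mxd4: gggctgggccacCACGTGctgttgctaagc

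For comparison, the 250 bases before the starts of Nolc1 (chr19:46075597-46075846, plus strand) and Polr1a (chr6:71908803-71909052, plus strand) are given. Both genes were among the 5 largest increases of the members with a promoter entry, and neither window holds the motif.

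Nolc1: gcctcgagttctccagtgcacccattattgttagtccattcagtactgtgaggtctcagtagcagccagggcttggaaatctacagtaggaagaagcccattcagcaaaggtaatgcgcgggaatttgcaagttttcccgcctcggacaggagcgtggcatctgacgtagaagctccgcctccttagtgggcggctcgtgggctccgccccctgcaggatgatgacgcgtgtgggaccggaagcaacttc

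Polr1a: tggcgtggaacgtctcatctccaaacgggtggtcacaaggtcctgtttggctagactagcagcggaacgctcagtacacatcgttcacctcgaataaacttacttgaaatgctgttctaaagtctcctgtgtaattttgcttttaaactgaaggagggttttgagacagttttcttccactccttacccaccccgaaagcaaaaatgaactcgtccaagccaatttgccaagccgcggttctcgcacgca

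The first comparison asked how the members differed between efferocytic and non-efferocytic macrophages within each experiment. Of the 38 members, 22 were higher (57.9%) and 3 were lower (7.89%) in efferocytic macrophages, and 13 were not called. Over all genes tested, 19.9% were called higher and 19.0% lower. The genes that rose were Myc itself, all 8 members that are snoRNP proteins, the RNA polymerase I subunits Polr1a and Polr1b, 3 nucleolar proteins, 7 subunit assembly factors and Nme1. The genes that fell were the MYC antagonists Mxd1, Mxd4 and Mxi1. Of the 32 members outside the MYC network, 31 had a positive log2 fold change, and their median was 0.44 on the log2 scale against -0.02 for all genes tested. Calls rest on edgeR's quasi-likelihood test of UMIs summed per library, with the experiment as a block and Benjamini-Hochberg adjustment over all 13869 genes. Over all 38 members the median log2 fold change was 0.41. Without the block 9 members were called higher and 1 lower (median 0.42), with 2358 of all 13869 genes called, and without the efferocytic library of Experiment 2 (no block possible) 3 were called higher (median 0.23), with 1204 of all 14199 genes called. With the non-efferocytic library of Experiment 1 or 2 left out no member was called, but edgeR then called only 2 and 0 of all genes, and the member medians were 0.38 and 0.48, with 12 and 16 members at an unadjusted p under 0.05. With 10% of each library's UMIs removed in the proportions of barcodes of 10 to 100 UMIs, the member median was 0.40, and 2 members were called higher and 0 lower (21 at an unadjusted p under 0.05) among 317 of all genes called by edgeR.

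**Figure D1:**
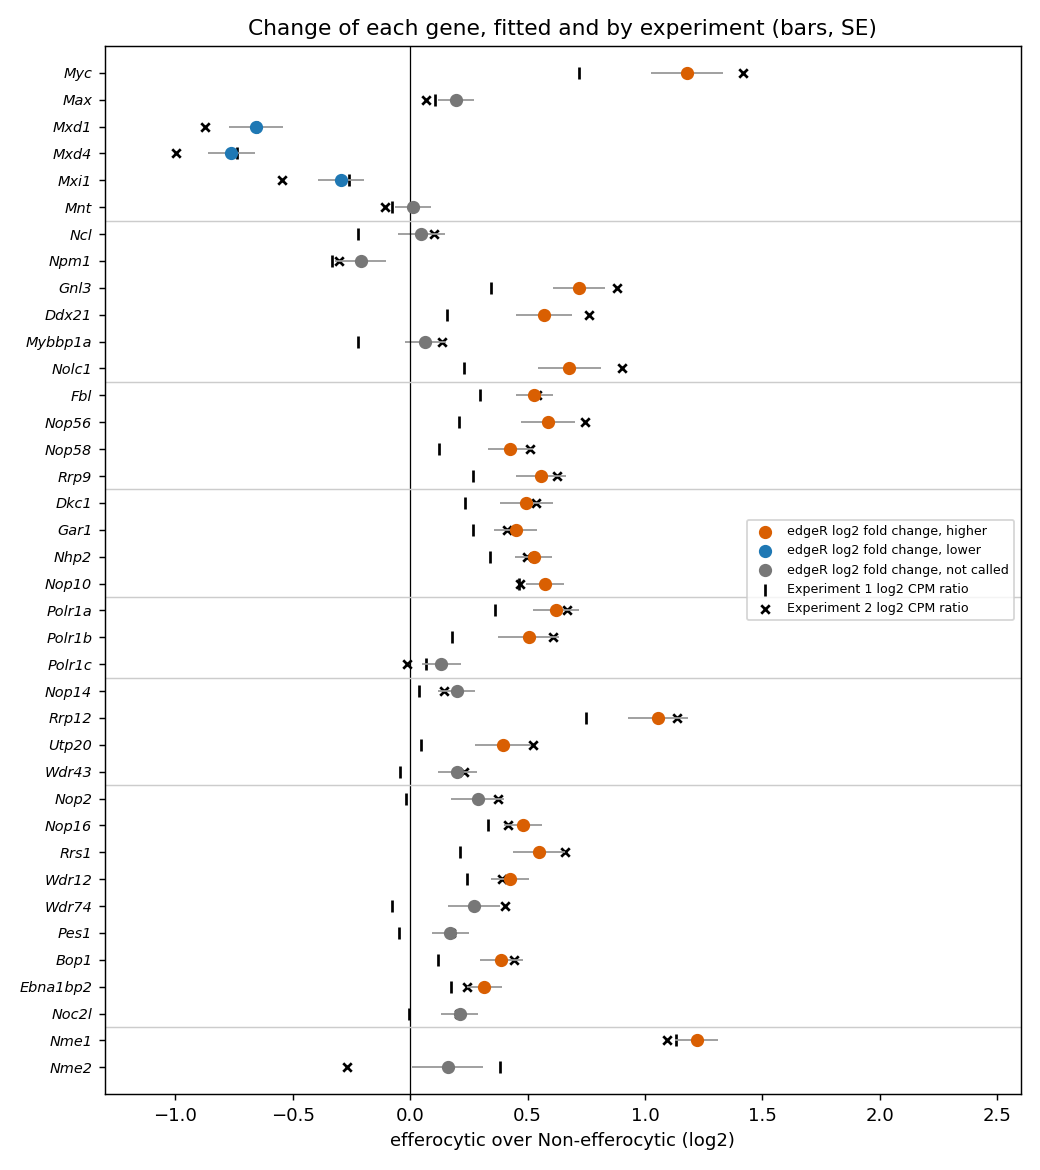
Change of each of the 38 genes, efferocytic over Non-efferocytic, on the log2 scale (x axis). Circles are the edgeR log2 fold changes with their SE as bars, coloured by call, and black marks are the CPM ratios of each experiment; grey lines part the role groups. The 22 genes called higher and 3 called lower are in colour, and in 29 of the 32 genes outside the MYC network the Experiment 2 ratio lies above the Experiment 1 ratio.

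The increases were larger in Experiment 2. The median log2 CPM ratio of the 32 genes was 0.19 in Experiment 1 and 0.46 in Experiment 2, where all genes tested had medians of -0.16 and -0.08. The CPM of the 2 groups did not overlap for 23 of the 38 members (60.5%), against 66.9% of all genes tested, so that share does not set the members apart. In 9 members the CPM ratios of the experiments had opposite signs, and none of these 9 was called. These ratios are taken before edgeR's TMM scaling, which moves the ratios of both experiments upward. Signs may therefore differ in fewer members on the scale of the test.

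Of the MYC network, Myc rose, 3 antagonists fell, and Max and Mnt were not called. Myc was at 4.93 CPM in non-efferocytic and 8.12 CPM in efferocytic macrophages of Experiment 1, and at 3.69 and 9.84 CPM in Experiment 2. Both efferocytic libraries lay above both non-efferocytic libraries. The log2 fold change was 1.18 (SE 0.154), a 2.26-fold rise, with an edgeR adjusted p of 0.00103. Myc (chr15:61985391-61990374, plus strand, GENCODE vM21) rested on 499 and 1015 UMIs in Experiment 1 and 510 and 1528 UMIs in Experiment 2.

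The RM1 cells were themselves made with Myc, so the values of the RM1 gene list stand beside this result. Cells with a UMI of that list made up 1.05% (non-efferocytic) and 0.583% (efferocytic) in Experiment 1 and 1.85% and 0.785% in Experiment 2, and without them the log2 fold change of Myc was 1.28 (edgeR adjusted p = 0.0017). The list was not higher in the cells sorted for engulfed RM1 dye, so it does not mark that material, and the part of RM1 transcripts in the Myc value was not tested. Barcodes with 10 to 100 UMIs, too few for a cell, had Myc at 42.5 CPM (non-efferocytic) and 57.8 CPM (efferocytic) in Experiment 1 and at 8.54 and 8.47 CPM in Experiment 2. After the removal in their proportions, Myc had a log2 fold change of 1.81 (edgeR adjusted p = 0.0494). In Experiment 1 cells held Myc at only 4.93 and 8.12 CPM, so that removal took most of its UMIs there. The value of 1.81 rests on the small remainder and cannot be read as a larger rise. The part of free RNA in the Myc value was not tested.

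Mxd4, an antagonist linked to cell cycle exit, had the highest level of the 3 that fell. It was at 102 and 61.3 CPM in Experiment 1 and 91.9 and 46.0 CPM in Experiment 2 (non-efferocytic, then efferocytic), a log2 fold change of -0.76 (SE 0.0987, edgeR adjusted p = 0.000999). Mxd1, which is induced in differentiating myeloid cells, was at 10.0 and 6.37 CPM in Experiment 1 and 9.16 and 4.99 CPM in Experiment 2, with a log2 fold change of -0.66 (SE 0.115, edgeR adjusted p = 0.00358). The groups did not overlap for either gene.

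Mxi1 was at 44.4 and 37.1 CPM in Experiment 1 and 41.0 and 28.0 CPM in Experiment 2. Its log2 fold change of -0.30 (SE 0.0982) lay at the threshold, with an edgeR adjusted p of 0.0448, and the call was lost with DESeq2 (adjusted p = 0.099), without the block (0.275), with at least 5000 UMIs per cell (0.0523), with Cell Ranger's rule for cells (0.0516) and with UMIs removed in the proportions of barcodes of 10 to 100 UMIs (0.17) or of 1 to 9 UMIs (0.0603). With 1 library left out and no block, the log2 fold change of Mxi1 ran from -0.53 to -0.05. The value of -0.05 was without the efferocytic library of Experiment 2. The decreases are relative to the total: counted as UMIs per cell, Mxd1 had a log2 fold change of -0.04, Mxd4 of -0.14 and Mxi1 of 0.32, and none of these was called.

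Max, the shared partner, was at 57.0 and 61.4 CPM in Experiment 1 and 55.4 and 58.1 CPM in Experiment 2, with a log2 fold change of 0.19 (SE 0.0774, edgeR adjusted p = 0.0803). Mnt, a broadly expressed antagonist, was at 34.6, 32.8, 36.7 and 34.1 CPM in the same order, with a log2 fold change of 0.01 (SE 0.0763). The 6 genes thus differed widely in level, and Myc stayed the lowest of them in non-efferocytic libraries, on a scale of UMIs from transcript 3′ ends that does not depend on length.

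**Figure D2:**
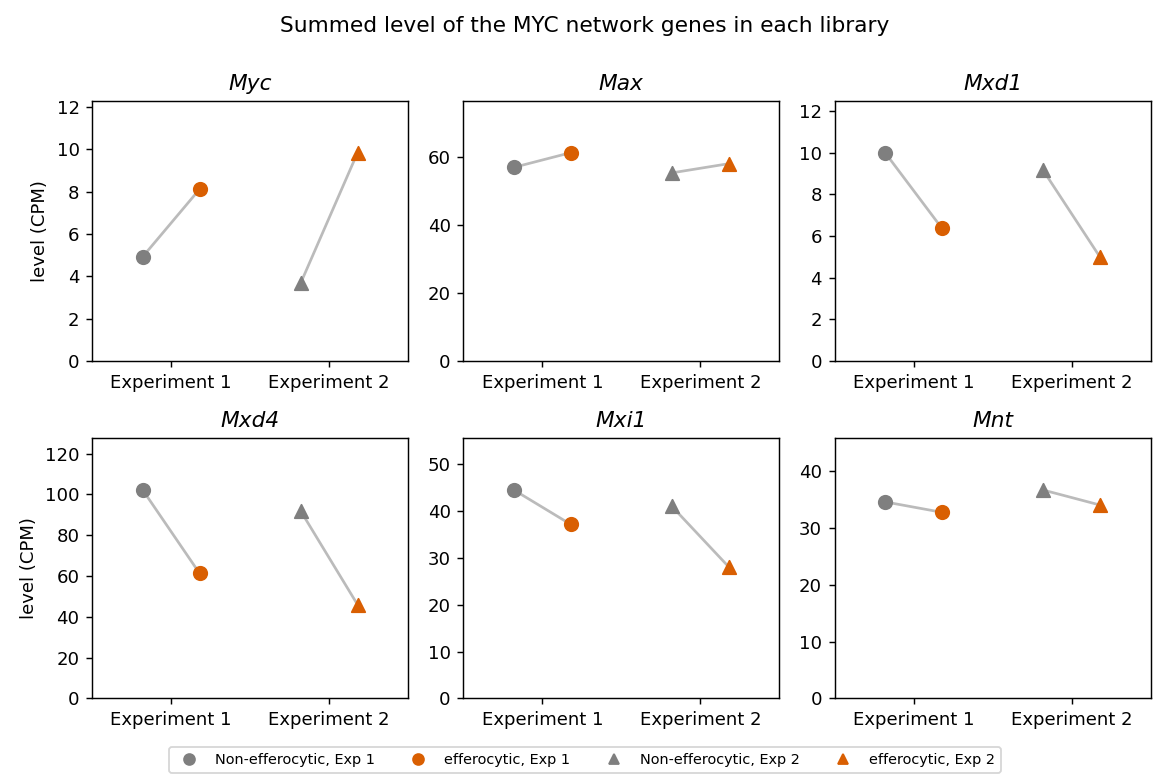
CPM of the 6 MYC network genes in each of the 4 libraries (y axis, from 0), by experiment; a line joins the libraries of an experiment. Myc rises from 4.93 to 8.12 and from 3.69 to 9.84 CPM, while Mxd1, Mxd4 and Mxi1 lie lower in both efferocytic libraries.

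Among the nucleolar proteins, Gnl3, Nolc1 and Ddx21 rose and Npm1, Ncl and Mybbp1a were not called. Gnl3 (nucleostemin, a nucleolar GTPase of growing cells) was at 27.5 and 34.9 CPM in Experiment 1 and 25.2 and 46.4 CPM in Experiment 2, a log2 fold change of 0.72 (SE 0.110, edgeR adjusted p = 0.00203). Nolc1, a chaperone of snoRNPs, had a log2 fold change of 0.68 and Ddx21, an RNA helicase of rRNA synthesis, of 0.57.

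Npm1 (nucleophosmin), the most abundant member, was lower in efferocytic libraries without passing the test. It was at 739 and 586 CPM in Experiment 1 and 744 and 603 CPM in Experiment 2, a log2 fold change of -0.21 (SE 0.108, edgeR adjusted p = 0.155). Its groups did not overlap, and with scaling to library totals it was called lower (log2 fold change -0.32, edgeR adjusted p = 0.0102). Counted as UMIs per cell it was called higher (log2 fold change 0.41, edgeR adjusted p = 0.0154), below the shift of 0.60 that this scaling gave the median of all genes. Ncl (nucleolin) was at 225 and 193 CPM in Experiment 1 and 200 and 215 CPM in Experiment 2, and Mybbp1a, a nucleolar MYB-binding protein, at 30.9 and 26.5, then 34.3 and 37.7 CPM. Both moved down in Experiment 1 and up in Experiment 2, and their groups overlapped.

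Npm1 and Ncl were the most abundant of the 32 genes in non-efferocytic libraries and weigh on the sum. The 32 genes summed to 1721 and 1769 CPM in Experiment 1 and to 1831 and 2081 CPM in Experiment 2. Without Npm1 and Ncl the other 30 summed to 757 and 989 CPM and to 887 and 1263 CPM, of which Nme1 alone made up 110 and 241 CPM and 138 and 294 CPM. In cells thinned to 5000 UMIs each, the median sum of the 32 genes was 8 UMIs in every library but the efferocytic library of Experiment 2, where it was 10.

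**Figure D3:**
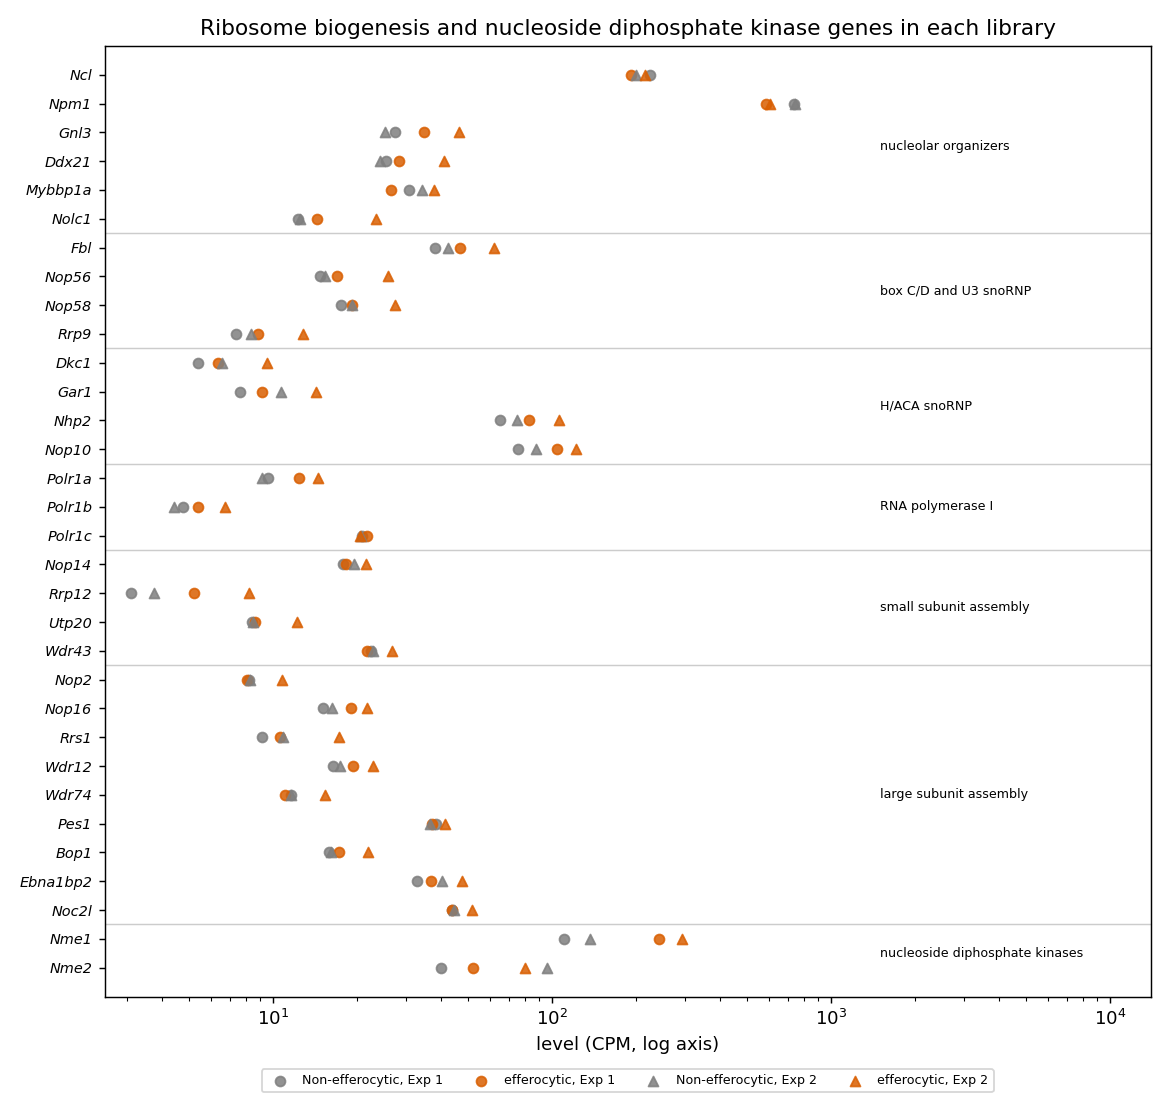
CPM of the 32 ribosome biogenesis and nucleoside diphosphate kinase genes in each library (x axis, log scale), by role group. Circles are Experiment 1 and triangles Experiment 2, grey for Non-efferocytic and orange for efferocytic; Npm1 lies at 586 to 744 CPM and Rrp12 at 3.11 to 8.23 CPM.

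All 4 members that are proteins of the box C/D and U3 snoRNPs, which guide 2′-O-methylation and early cleavage of ribosomal RNA, rose. Nop56, a core protein, was at 14.7 and 17.0 CPM in Experiment 1 and 15.4 and 25.8 CPM in Experiment 2, a log2 fold change of 0.59 (SE 0.115, edgeR adjusted p = 0.00561). Nop58, its partner, was at 17.6 and 19.2, then 19.2 and 27.4 CPM, a log2 fold change of 0.43 (SE 0.0959, edgeR adjusted p = 0.0101). The groups did not overlap for Nop56 and overlapped narrowly for Nop58. Rrp9, of the U3 snoRNP, and the methyltransferase Fbl (fibrillarin) had log2 fold changes of 0.56 and 0.53.

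All 4 proteins of the H/ACA snoRNPs, which convert uridine to pseudouridine, also rose. Nop10 was at 75.9 and 105 CPM in Experiment 1 and 88.0 and 122 CPM in Experiment 2, a log2 fold change of 0.57 (SE 0.0813, edgeR adjusted p = 0.00148). Gar1 was at 7.60 and 9.15, then 10.7 and 14.2 CPM, with 0.45 (SE 0.0927, edgeR adjusted p = 0.00711). With 1 library left out and no block, its log2 fold change ran from 0.15 to 0.73. Gar1 overlapped between groups because Experiment 2 was higher throughout. Nhp2 and the pseudouridine synthase Dkc1 (dyskerin) had log2 fold changes of 0.53 and 0.50.

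Of the RNA polymerase I genes, Polr1a and Polr1b, the largest subunits, rose. Polr1a was at 9.63 and 12.4 CPM in Experiment 1 and 9.14 and 14.5 CPM in Experiment 2, a log2 fold change of 0.62 (SE 0.0978, edgeR adjusted p = 0.00224), and Polr1b had 0.50. Polr1c, which RNA polymerase III shares, was at 20.8 and 21.8, then 20.7 and 20.4 CPM, with CPM ratios of opposite sign in the experiments. Its fitted log2 fold change was 0.13 (SE 0.0833, edgeR adjusted p = 0.24).

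Of the 4 small subunit assembly factors, Rrp12 and Utp20 rose. Rrp12, needed for export and processing of the precursor, was at 3.11 and 5.23 CPM in Experiment 1 and 3.74 and 8.23 CPM in Experiment 2. Its log2 fold change of 1.06 (SE 0.127, edgeR adjusted p = 0.000742) was the third largest of the set and rested on 315 to 1278 UMIs per library. Utp20 had a log2 fold change of 0.39. Nop14 was at 17.8 and 18.3, then 19.6 and 21.6 CPM (log2 fold change 0.20, SE 0.0793, edgeR adjusted p = 0.081). Wdr43 was at 22.5 and 21.8, then 22.8 and 26.8 CPM (log2 fold change 0.20, SE 0.0848), with CPM ratios of opposite sign in the experiments.

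Of the 9 large subunit assembly factors, 5 rose and 4 were not called. Rrs1 had the largest change, from 9.17 to 10.6 CPM in Experiment 1 and from 10.9 to 17.3 CPM in Experiment 2 (log2 fold change 0.55, SE 0.109, edgeR adjusted p = 0.0061). With 1 library left out and no block, its log2 fold change ran from 0.23 to 0.86. Nop16 (0.48), Wdr12 (0.43), Bop1 (0.39) and Ebna1bp2 (0.32) followed on the log2 scale. Pes1, which acts in a complex with Bop1 and Wdr12, was at 38.4 and 37.1, then 36.7 and 41.4 CPM (log2 fold change 0.17, SE 0.0779, edgeR adjusted p = 0.116). Thus 2 proteins of that complex rose and the third did not pass the test, and the difference among them was not tested.

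The other 3 were not called either, and a difference between the experiments was not tested. Nop2, an RNA methyltransferase, was at 8.18 and 8.07, then 8.29 and 10.7 CPM (log2 fold change 0.29). Wdr74 was at 11.7 and 11.04, then 11.6 and 15.4 CPM (0.27). Noc2l was at 44.0 and 43.9, then 44.7 and 51.7 CPM (0.21). Their edgeR adjusted p-values lay between 0.0615 and 0.0877.

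Nme1 and Nme2 encode the nucleoside diphosphate kinases A and B, which make nucleoside triphosphates from diphosphates, and lie side by side on chromosome 11. Nme1 was at 110 and 241 CPM in Experiment 1 and 138 and 294 CPM in Experiment 2. Its log2 fold change of 1.22 (SE 0.0925, edgeR adjusted p = 0.000118), a 2.33-fold rise, was the largest of the set and almost equal in the experiments (1.13 and 1.09). Cells with at least 1 Nme1 UMI made up 56.6% and 86.6% in Experiment 1 and 57.0% and 92.4% in Experiment 2. With each cell thinned to 5000 UMIs (7181, 6151, 10007 and 7903 cells deep enough, in library order) these shares were 35.5% and 63.3%, then 43.4% and 73.0%. No cell type here should lack Nme1, so no share in such cells can be set beside them. In barcodes of 10 to 100 UMIs Nme1 was at 157 and 244 CPM in Experiment 1 and 196 and 213 CPM in Experiment 2, and the part of free RNA in these shares was not tested.

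Nme2 was at 40.1 and 52.3 CPM in Experiment 1 and 96.4 and 79.9 CPM in Experiment 2, so the experiments differed by more than the groups and in opposite directions. Its log2 fold change was 0.16 (SE 0.151, edgeR adjusted p = 0.43). The read-through gene Gm20390 covers 48.9% of the exon bases of Nme2 and 12.5% of those of Nme1 in GENCODE vM21, and Cell Ranger does not count reads compatible with 2 genes. The level of Nme2, and to a lesser extent of Nme1, is therefore uncertain. Gm20390 itself had 3 to 32 UMIs per library, and the longest exact stretch shared by Nme1 and Nme2 transcripts was 29 bases.

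The CPM above are shares of each library's UMIs, and the fold changes compare such shares after edgeR's TMM scaling between libraries. The TMM factors were 1.039 and 1.037 for non-efferocytic and 0.938 and 0.989 for efferocytic libraries, in order of experiment. Fitted values can therefore lie above both CPM ratios, as for Mnt (CPM ratios of -0.08 and -0.11 on the log2 scale). Efferocytic cells also held more UMIs. Scaled to the number of cells, 35 of the 38 members were called higher and none lower by edgeR, with no member lower at an unadjusted p under 0.05, but 7507 of all 13869 genes were then called, and the median of all genes rose by 0.60 on the log2 scale as well. The member median was then 1.03. Relative to that shift, Myc (1.80), Nme1 (1.84) and Rrp12 (1.67) stood highest and Mxd4 and Mxd1 lowest. The 32 genes summed to 21.0 and 33.0 UMIs per cell in Experiment 1 and 18.9 and 38.4 in Experiment 2. Scaling to library totals moved the median of all genes to -0.12, with 19 members called higher and 4 lower.

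Other genes of the same processes were taken from wider lists. Of 93 further ribosome biogenesis factors, 37 rose, 2 fell (Utp14a and Ddx52) and 54 were not called, with a median log2 fold change of 0.23 against -0.02 for all genes. Bysl (0.77), Rpf2 (0.70) and Nat10 (0.68), which act in assembly of the small subunit, of the large subunit with the 5S particle, and in rRNA acetylation, had the largest increases. Bysl was at 6.14 and 8.10 CPM in Experiment 1 and 6.51 and 12.4 CPM in Experiment 2, and Rpf2 at 14.998 and 21.3, then 17.0 and 27.3 CPM. The share called higher was 39.8%, below that of the members and above the 19.9% of all genes, with no test between these shares.

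None of the other 13 genes of the RNA polymerase I machinery was called, among them the factors Ubtf, which binds ribosomal DNA, and Rrn3, which recruits the polymerase. Their log2 fold changes ran from -0.19 to 0.22 with a median of -0.01. Ubtf was at 57.0 and 49.2, then 57.3 and 56.3 CPM. Of 83 ribosomal protein genes tested, 2 were called higher, Rpl22l1 (log2 fold change 0.36) and Rpl3l, which was under 0.5 CPM, and the median was -0.09.

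Of 40 known MYC targets in metabolism, growth and protein folding, 29 rose (72.5%) and 2 fell, with a median of 0.44. Over all genes tested, 19.9% were called higher and 19.0% lower. For the wider lists only values of the main setting are given. Srm (spermidine synthase) was at 11.7 and 20.5 CPM in Experiment 1 and 14.6 and 37.5 CPM in Experiment 2 (log2 fold change 1.20, SE 0.117, edgeR adjusted p = 0.000297). Eif4e, the cap-binding translation factor, had 1.03 and Impdh1, of guanine nucleotide synthesis, 0.98. The 2 that fell were the cyclin gene Ccnd2 (-1.02) and the RNA-binding protein gene Hnrnpa1 (-0.27).

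Of 13 tested genes of the MYC network beyond the members, 3 were called higher (23.1%) and 1 lower, against 19.9% and 19.0% of all genes. The share called higher is near that of all genes and does not set the list apart. Fbxw7 and Skp2, subunits of ubiquitin ligases that act on MYC, rose by 0.72 and 0.59 on the log2 scale, and Mlx, a MAX-like partner, by 0.27. Fbxw7 was at 20.7 and 31.5 CPM in Experiment 1 and 23.6 and 36.5 CPM in Experiment 2. Mlxipl was called lower at under 0.3 CPM, and the other 9 were not called. Of the 15 snoRNA host genes listed, 4 were among the genes tested. Snhg20 (0.31) and Snhg6 (0.26) rose while Snhg9 (-0.66) and Snhg12 (-0.25) fell. With 4 genes tested, these counts are too small to set beside the shares of all genes. Snhg6 was at 26.8 and 26.5 CPM in Experiment 1 and 22.6 and 28.1 CPM in Experiment 2. The edgeR adjusted p-values of Snhg6 (0.0489) and Snhg12 (0.0482) lay at the threshold.

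**Figure D4:**
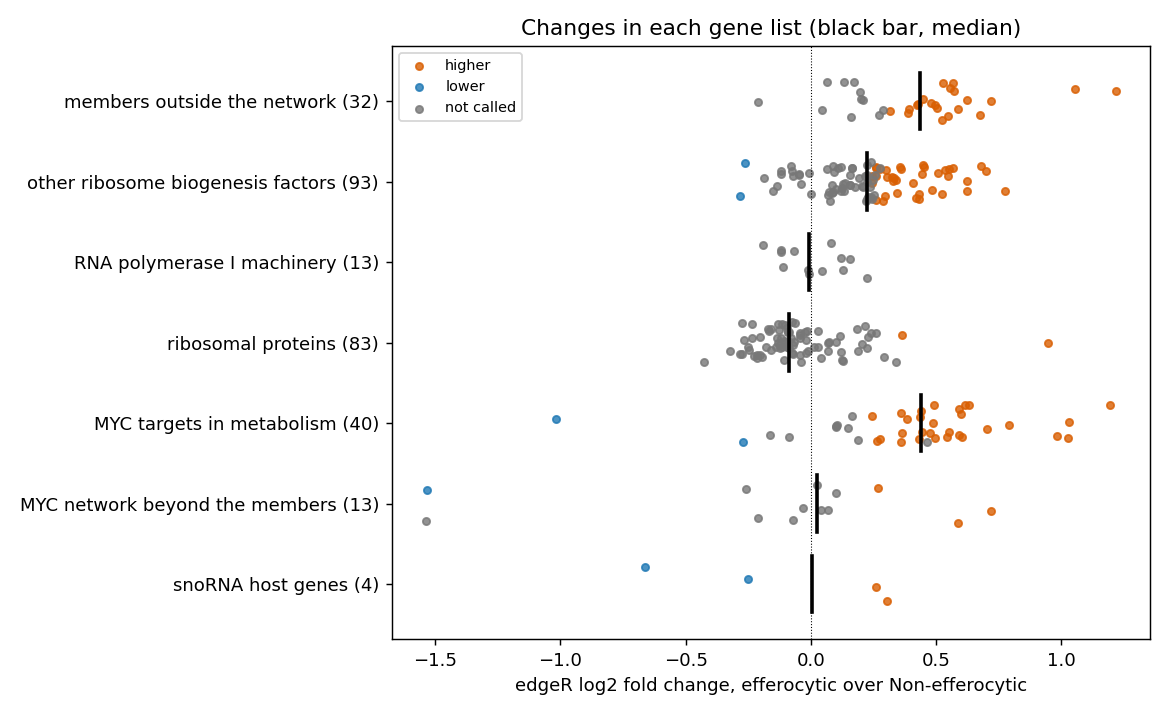
The edgeR log2 fold change of every tested gene (x axis), by list, with the number of genes in brackets; points are spread vertically at random, coloured by call, and black bars are medians. The medians of the 32 members outside the network and of the MYC targets in metabolism are 0.44 each, and those of the RNA polymerase I machinery and the ribosomal proteins are -0.01 and -0.09.

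Ribosome synthesis is tied to growth and division, so the members were also compared between cells rich in G2/M transcripts (at least 0.2% of a cell's UMIs from a list of 30 mitotic genes) and the other cells of the same library. G2/M-rich cells numbered 248 (2.995%) and 145 (2.17%) in Experiment 1 and 435 (3.24%) and 324 (3.85%) in Experiment 2, so the groups did not differ in 1 direction. In G2/M-rich cells 11 members were higher (28.9%) and 8 lower (21.1%), against 22.1% and 28.9% of all 13671 genes tested. These counts came from edgeR's quasi-likelihood test on 8 sums with the library as a block. The member median was -0.08 on the log2 scale, as against -0.07 for all genes. With a cut of 0.5% in place of 0.2%, 5 members were higher and 12 lower, with 4876 of all 13520 genes called and medians of -0.26 and -0.08. Counted as UMIs per cell, 32 members were higher and 1 lower and 8552 of all 13671 genes were called, with medians of 0.48 for members and for all genes, so the directions given below are relative to each pool's total.

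At the cut of 0.2%, snoRNP genes moved mostly upward in G2/M-rich cells and the antagonists moved apart. All 4 H/ACA genes were higher at the cut of 0.2%, led by Dkc1 (log2 fold change 0.81, SE 0.134); with a cut of 0.5% only Nhp2 (0.27) was called, and Gar1 was at -0.047. Dkc1 was at 5.26 CPM in other cells and 8.65 CPM in G2/M-rich cells of the non-efferocytic library of Experiment 1, and at 6.17 and 15.03 CPM in that of Experiment 2. Nop58 (0.78) and Nop56 (0.61) were higher and Fbl (-0.35) was lower. Wdr12 (0.49), Nhp2 (0.38), Gar1 (0.40), Nme1 (0.27), Ncl (0.21), Ebna1bp2 (0.20) and Nop10 (0.17) were also called higher. With a library left out, Wdr12 ran from 0.44 to 0.60. Over the alternative settings that kept all 4 libraries, Nop58 stayed at 0.64 or more and Wdr12 at 0.45 or more. Both stayed called in these settings, as did Nhp2 and Ncl. Nop56 fell as low as 0.16, Nme1 0.19, Ebna1bp2 0.075 and Nop10 0.042, and each lost its call in some setting.

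Mxd1 was higher in G2/M-rich cells of every library, at 23.5 against 9.44 CPM and 18.5 against 8.73 CPM in the non-efferocytic and 15.5 against 6.10 CPM and 11.6 against 4.69 CPM in the efferocytic libraries (log2 fold change 1.06, SE 0.0984, edgeR adjusted p = 6.32e-06). Mxd4 was lower in every library, at 60.3 against 104 CPM and 53.3 against 93.6 CPM in non-efferocytic and 30.9 against 62.2 CPM and 22.5 against 47.0 CPM in efferocytic libraries (log2 fold change -1.10, SE 0.0773, edgeR adjusted p = 7.17e-07). The 2 antagonists, both lower in efferocytic macrophages, thus lay on opposite sides here. Noc2l (-0.78), Mnt (-0.66), Pes1 (-0.41), Gnl3 (-0.29), Max (-0.24) and Nme2 (-0.21) were the other members called lower. As UMIs per cell, Max (0.32), Gnl3 (0.26) and Nme2 (0.35) were called higher, Fbl (0.21) and Pes1 (0.15) were positive without a call, and Mxd4 (-0.54) was still called lower. Of 83 ribosomal protein genes, 74 were lower and 2 higher in G2/M-rich cells.

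**Figure D5:**
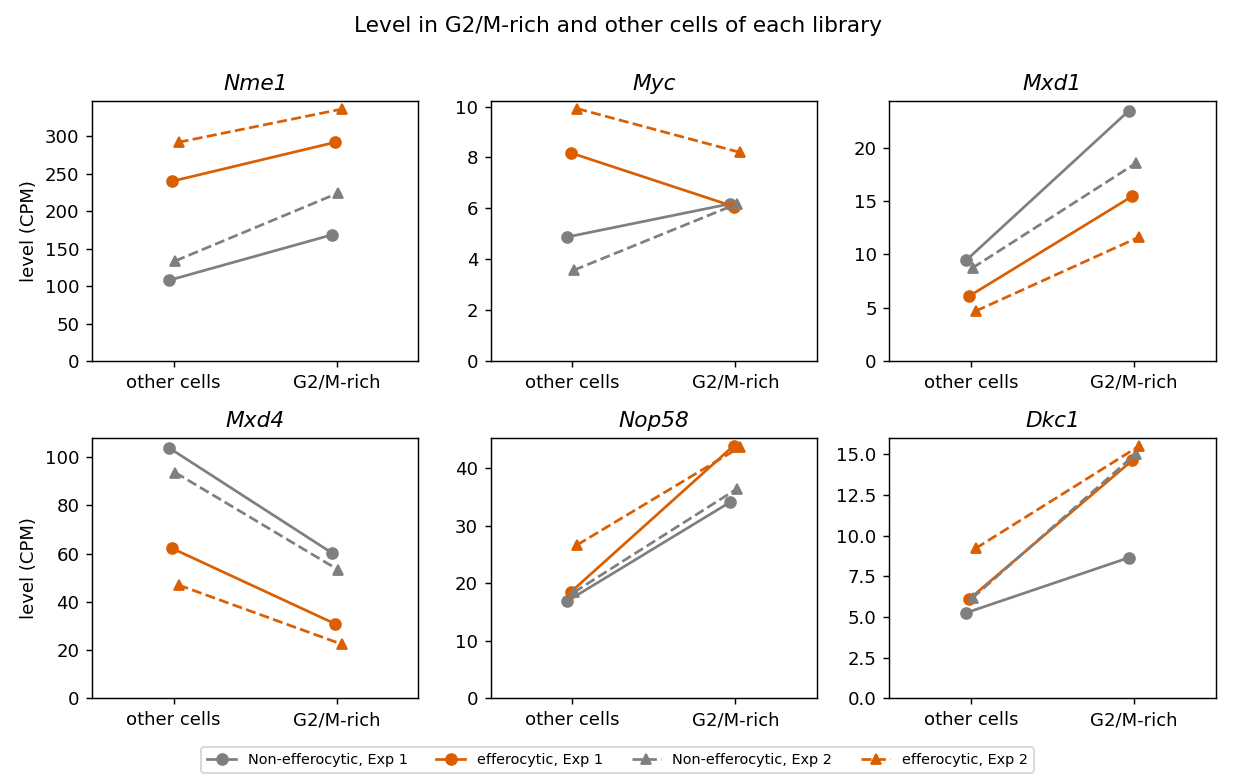
CPM of 6 genes in G2/M-rich and in other cells of each library (y axis, from 0); lines join the cells of a library, solid for Experiment 1 and dashed for Experiment 2. Mxd1 rises and Mxd4 falls toward G2/M-rich cells in all 4 libraries, and the distance between efferocytic and Non-efferocytic libraries narrows for Nme1.

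The difference of the efferocytic effect between these pools was tested itself. Only Nme1 of the 38 members passed, against 3.11% of all genes, so this count does not set the members apart. Nme1 had a log2 fold change of 0.69 (SE 0.115) in G2/M-rich and 1.24 (SE 0.0939) in other cells. The difference was -0.54 (SE 0.0668, edgeR adjusted p = 0.000218). Nme1 was at 168 and 292 CPM in G2/M-rich cells of Experiment 1 and 224 and 336 CPM in those of Experiment 2, against 108 and 240, then 134 and 292 CPM in other cells. The call was lost without the non-efferocytic library of Experiment 2 (difference -0.37, edgeR adjusted p = 0.233), without the block (difference -0.55, edgeR adjusted p = 0.753) and with a cut of 0.5% (difference -0.58, edgeR adjusted p = 0.159). Myc had a difference of -0.99 (SE 0.273, edgeR adjusted p = 0.065), from 22 to 55 UMIs per G2/M-rich pool, and did not pass. Without G2/M-rich cells 22 members were called higher and 3 lower, with log2 fold changes of 1.22 for Myc and 1.24 for Nme1. The same counts were found without MHC class II-rich cells, without cells rich in markers of other cell types, without cells with a UMI of the RM1 list and without the cell barcodes that libraries shared.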

How the data were processed

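Single-cell 3′ libraries (10x, kit version 3.1) of sorted BM macrophages were analyzed in 4 samples, grouped by the labelled efferocytic status with the labelled experiment as the pair. The authors mapped reads to mm10 with Cell Ranger (3.0.0 in the methods and the headers of Experiment 1, 3.1.0 in the headers of Experiment 2) and deposited the unfiltered UMI counts, not normalized, of every barcode. Seurat 3.1, also named in the processing notes, was not used here.

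Barcodes were kept as cells with 200 genes or more, 1000 UMIs or more and no more than 10% of UMIs from mitochondrial genes. Doublets were not called; leaving out the 5% of cells with most UMIs was an alternative. Counts were summed per library and tested with edgeR 4.0.16 in R 4.3.3 (TMM, filterByExpr, quasi-likelihood test, experiment as block, threshold 0.05). The SE is the log2 fold change divided by the square root of F. At these depths a count of 0 in a library would allow 3 counts, 0.0193 to 0.0296 CPM, for counting error only. Deviations of same-experiment libraries from their group means correlated at 0.786 over 7097 genes, and the pairing comes from the experiment label. G2/M-rich and other cells gave 8 sums, with library as block. The fits were also run on simulated counts without an experiment effect, and the outcome is not given here. DESeq2 1.42.0 was an alternative.

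The members, lists and tests were chosen with earlier results of these data known. Values in every library are given for the MYC network and, in each role group, for the largest and smallest log2 fold change and any member with opposite signs in the experiments; of each wider list, up to 3 called genes with the largest change and a mean of at least 5 CPM are named. Values in every library for genes of the wider lists, other genes named beside a small count, and the promoters with an E-box were chosen after their values were seen. Gene positions are GENCODE vM21 (GRCm38) and promoters RefSeq's.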

Additional observations from a re-analysis of the deposited data

Results flagged for a closer look

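The efferocytic effect on Nme1 differed between G2/M-rich and other cells, by a test of the difference itself: -0.54 on the log2 scale (SE 0.0668, edgeR adjusted p = 0.000218). Nme1 alone of the 38 members passed, against 3.11% of all 13671 genes, so this count does not set the members apart. The level of Nme1 was higher in efferocytic macrophages in both pools of both experiments. The difference was still called with DESeq2 and with a cut of 0.1% for G2/M-rich cells, and not with a cut of 0.5% (edgeR adjusted p = 0.159), without the replicate block (0.753, where 1 of all 13671 genes was called) or without the non-efferocytic library of Experiment 2 (0.233).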

How the results depend on the processing

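Between efferocytic and non-efferocytic macrophages, 22 members higher and 3 lower became 9 and 1 without the replicate block, 35 and 0 with UMIs per cell, and 2 and 0 with free RNA removed in the proportions of barcodes of 10 to 100 UMIs, where 317 genes in all were called, the member median was 0.40 against 0.41, and the cause of the lost calls was not tested. With barcodes of 1 to 9 UMIs as the source, an alternative chosen after seeing the data, 21 were higher and 2 lower. DESeq2 called 20 higher and 2 lower, cells thinned to 5000 UMIs gave 20 and 3, and a mean of at least 10 CPM gave 16 and 2 of the 30 members left. All genes called were 3404 of 13869 with DESeq2, 4653 of 12242 in thinned cells and 3026 of 7097 at 10 CPM. The other settings on cells and genes gave 22 higher and 2 or 3 lower, and library totals 19 and 4. Each library left out in turn, with no block, since no residual degree of freedom would be left, gave 0 to 22 members higher and 0 to 3 lower. In G2/M-rich cells, 11 higher and 8 lower became 5 and 12 with a cut of 0.5%, 7 and 6 without the replicate block, and 32 and 1 as UMIs per cell, with 8 to 11 higher and 6 to 8 lower when a library was left out. All genes called were 4876 of 13520 with that cut, 6277 of 13671 without the block and 8552 of 13671 as UMIs per cell. With a library left out they were 5668 to 6172. The difference between pools (0 higher, 1 lower) gave 0 lower with a cut of 0.5% and without the replicate block, and 0 to 2 lower when a library was left out.

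Mnt, at 0.01, became -0.0037 with at most 5% mitochondrial UMIs, -0.022 in thinned cells, -0.0088 with free RNA removed, -0.093 with library totals, -0.082 at a mean of at least 10 CPM, -0.025 without cells rich in markers of other cell types, -0.014 without cells with an RM1 list UMI and -0.024 without the 5% of cells with most UMIs. Ncl became -0.035 in thinned cells, -0.0042 with free RNA removed, -0.060 with library totals and -0.049 at a mean of at least 10 CPM, and Mybbp1a -0.042 and -0.030 with the last 2. As UMIs per cell, Mxi1 (0.32, not called) and Npm1 (0.41, called higher) turned positive. In G2/M-rich cells, the values with UMIs per cell were positive for Myc (0.44), Max (0.32), Gnl3 (0.26), Ddx21 (0.46), Mybbp1a (0.39), Fbl (0.21), Rrp9 (0.40), Polr1a (0.33), Polr1b (0.35), Polr1c (0.48), Wdr43 (0.41), Nop2 (0.43), Nop16 (0.48), Rrs1 (0.46), Wdr74 (0.41), Pes1 (0.15), Bop1 (0.48) and Nme2 (0.35). With a cut of 0.1% the values turned for Myc (0.027), Nop16 (0.033) and Bop1 (0.023), and with a cut of 0.5% for Nolc1 (-0.40), Gar1 (-0.047), Rrp12 (-0.56) and Utp20 (-0.23). With a library left out, signs turned within -0.024 to 0.063 for Mnt, -0.030 to 0.14 for Ncl, -0.15 to 0.29 for Mybbp1a and -0.44 to 0.83 for Nme2 (-0.24 without the efferocytic library of Experiment 2) between groups, and within -0.32 to 0.057 for Myc, -0.10 to 0.035 for Polr1c, -0.071 to 0.17 for Rrp12 and -0.14 to 0.043 for Nop16 in G2/M-rich cells.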

Other observations

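In barcodes of 10 to 100 UMIs, the level of some genes followed the experiment and not the group. Mxd1 was there at 13.1 CPM (non-efferocytic) and 18.3 CPM (efferocytic) in Experiment 1 and at 129 and 133 CPM in Experiment 2, while in cells it was at 4.99 to 10.0 CPM in all libraries. Myc had the reverse order, with 42.5 and 57.8 CPM in Experiment 1 against 8.54 and 8.47 CPM in Experiment 2. The neutrophil gene S100a8 was at 266 and 241 CPM and at 1991 and 1393 CPM in the same barcodes. Across 7097 genes, which are not independent replicates, log2 CPM of these barcodes correlated at 0.974 and 0.978 between the libraries of an experiment and at 0.915 to 0.940 between libraries of different experiments. In barcodes of 1 to 9 UMIs Mxd1 was at 7.60 to 15.3 CPM and Myc at 2.70 to 8.55 CPM.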
